A study of Mus musculus with 12 samples.

Results

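Planar cell polarity genes give cells of a sheet a shared direction within its plane, and 10 of them, Vangl1, Vangl2, Celsr1, Celsr2, Prickle1, Dvl1, Dvl2, Ptk7, Scrib and Ror2, were followed along the posterior neural tube of the mouse embryo. They were chosen by name, as genes of planar cell polarity and neural tube closure, and were measured by the 19 probe sets whose platform annotation names exactly 1 gene, that gene being among the 10, of 45101 probe sets in all. Of the 19, 18 passed the filter on low signals, and each of the 10 genes was among the 12089 genes tested. The tissue came from CD1 (outbred) embryos at embryonic day 9.5, untreated apart from 1 min in pancreatin (2 mg per ml), a digestive enzyme mixture used to free the tube from neighbouring layers. The tube, freed from the presomitic mesoderm and other surrounding tissue with needles, was cut into 6 pieces, and each piece was measured on 2 Affymetrix arrays described as biological replicates, from 2 embryos in all. The labels give no caudal or rostral end, so the pieces are called parts 1 to 6. No group carried a mutation or drug, and the comparisons are between positions only.

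In planar cell polarity, the atypical cadherins Celsr1 and Celsr2 bridge neighbouring cells, Frizzled receptors and the cytoplasmic Dishevelled proteins (Dvl1, Dvl2) collect on one side of each cell, and the membrane proteins Vangl1 and Vangl2 with Prickle1 collect on the other. Ror2 is a receptor tyrosine kinase for Wnt5a, Ptk7 is a Wnt co-receptor with an inactive kinase domain, and Scrib is a scaffold protein that binds Vangl2. The pathway drives the narrowing and lengthening of the neural plate before the tube closes, and mouse mutants of Vangl2, Celsr1, Scrib or Ptk7, or of Dvl1 and Dvl2 together, are known for an open neural tube.

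The sequence upstream of the start site was read for 4 of the genes that moved along the tube, to show what lies next to genes that rose (Vangl2, Celsr2, Ror2) and to the gene that fell (Ptk7). The windows hold the 250 bases before the annotated start in RefSeq's GRCm38.p6 table, 5′ to 3′ on the strand of the gene, and capitals mark matches to the motifs searched.
Vangl2, chr1:172027296-172027545, minus strand: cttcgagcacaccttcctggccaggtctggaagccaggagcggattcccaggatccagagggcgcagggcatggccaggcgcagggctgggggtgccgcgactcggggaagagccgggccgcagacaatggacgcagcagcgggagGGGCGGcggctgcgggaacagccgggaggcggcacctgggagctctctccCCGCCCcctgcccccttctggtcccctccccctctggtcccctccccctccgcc
Celsr2, chr3:108415580-108415829, minus strand: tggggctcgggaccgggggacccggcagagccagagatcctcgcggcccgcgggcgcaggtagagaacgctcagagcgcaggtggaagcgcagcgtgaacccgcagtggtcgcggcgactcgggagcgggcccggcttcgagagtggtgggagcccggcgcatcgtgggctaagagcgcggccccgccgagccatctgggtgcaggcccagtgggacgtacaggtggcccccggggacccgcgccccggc
Ror2, chr13:53286125-53286374, minus strand: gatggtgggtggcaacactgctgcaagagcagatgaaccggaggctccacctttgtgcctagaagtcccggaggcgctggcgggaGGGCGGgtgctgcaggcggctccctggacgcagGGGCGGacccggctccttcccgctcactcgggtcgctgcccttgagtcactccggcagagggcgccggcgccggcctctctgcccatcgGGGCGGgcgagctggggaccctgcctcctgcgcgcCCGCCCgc
Ptk7, chr17:46629505-46629754, minus strand: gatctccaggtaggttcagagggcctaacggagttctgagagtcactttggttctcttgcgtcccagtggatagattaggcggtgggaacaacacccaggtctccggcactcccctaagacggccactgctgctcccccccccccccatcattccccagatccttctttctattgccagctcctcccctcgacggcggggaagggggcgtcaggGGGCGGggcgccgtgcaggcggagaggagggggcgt

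The motifs searched, on both strands, were the GC box GGGCGG, the CCAAT box, the E-box CACGTG, the core CTTTGA of the sites bound by TCF and LEF factors, and the TATA box TATAAA; overlapping copies of 1 motif were counted separately. The GC box had 2 matches upstream of Vangl2, 4 upstream of Ror2, 1 upstream of Ptk7 and 0 upstream of Celsr2, and 32.7% of the 32851 windows of this length in the table held it. Celsr2 had 32 CpG dinucleotides, more than 95.4% of the windows. Ror2 had 24, Vangl2 18 and Ptk7 14, against a median of 6 over all windows. None of these 4 windows held the letters of another of the 5 motifs. The table held 7 of the 10 genes. Of the other entries, Dvl1 had 5 GC box matches, Dvl2 had 4, and the start sites listed for Prickle1 had 3 and 2. The Dvl2 window also had 3 copies of CACGTG. At least 3 copies were in 0.0609% of all windows, and at least 1 copy in 6.02%. A match is a run of letters and no evidence of binding.

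The values are linear array signals. For each piece they are given for replicate 1 and replicate 2, in that order, and the number of arrays limits the precision. Fold differences and slopes were computed on log2(signal + 4.43), where the offset is 0.25 of the median signal, so differences of dim probe sets are understated. The slope is the change of that log2 value per part number over all 12 arrays, with its standard error, and adjusted p-values are from limma with Benjamini-Hochberg adjustment over the 12089 genes at a threshold of 0.05. Across genes, which are not independent replicates, the arrays of a piece had r of 0.951 to 0.980. All p-values rest on 2 embryos, each taken to have given the 6 arrays of 1 replicate number. In tissue pieces, fewer cells of a type and less RNA per cell cannot be told apart.

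Part 1 was the lowest piece for 8 of the 10 planar polarity genes, among them Dvl2 and Scrib, whose slopes did not pass. The share of all genes that were lowest in part 1 was not counted. By slope, 6 of the 10 rose (Vangl1, Vangl2, Celsr1, Celsr2, Dvl1 and Ror2), 1 fell (Ptk7) and 3 did not pass (Prickle1, Dvl2 and Scrib). Of all genes tested, 12.7% passed, 5.64% rising and 7.05% falling. The median slope of the 10 was 0.152 log2 per part, against -0.007 over all genes tested. The 6 increases were modest, with mean signals in part 6 that were 1.40 to 3.61 times those in part 1. Without both arrays of part 1 the slopes of Vangl1, Celsr2 and Ptk7 passed, and without both of part 6 those of Vangl1, Celsr2 and Ror2.

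**Figure D1:**
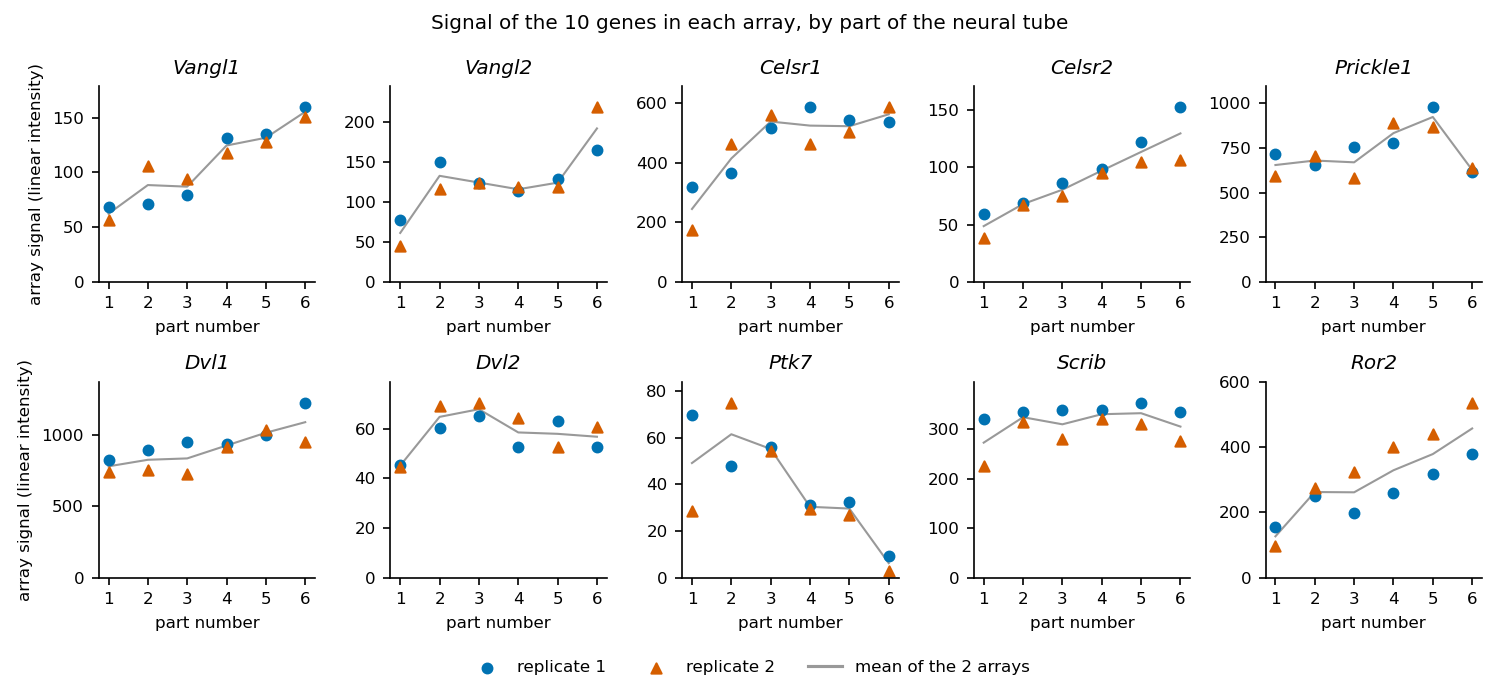
Array signal (linear, vertical axes from 0) of each of the 10 genes by part number, for the probe set that represents the gene; circles are replicate 1, triangles replicate 2 and the line their mean. Vangl1, Celsr2 and Ror2 climb over most of the series, Vangl2 and Celsr1 step up after part 1, and Ptk7 drops to 9.47 and 3.02 in part 6.

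Vangl1 rose along the tube. Its signals were 68.3 and 56.3 in part 1, 70.8 and 106 in part 2, 79.8 and 94.2 in part 3, 132 and 117 in part 4, 135 and 128 in part 5, and 160 and 151 in part 6. Every array of parts 4 to 6 lay above every array of parts 1 to 3. The slope was 0.24 ± 0.033 log2 per part (SE, limma adjusted p = 0.000306), and it passed on leaving out any 1 array. A second, dimmer probe set gave 40.9 and 17.5 on the part 1 arrays and 128 and 117 on those of part 6, with a slope of 0.37 ± 0.048 (limma adjusted p = 0.000279 over all kept probe sets).

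Vangl2, the paralogue whose loss in mice leaves most of the spinal neural tube open, took its increase mainly at the ends of the series. Its signals were 77.3 and 45.0 in part 1, 149 and 116 in part 2, 124 and 124 in part 3, 113 and 118 in part 4, 129 and 119 in part 5, and 165 and 219 in part 6. The arrays of parts 2 to 5 lay between 113 and 149 with no steady order, part 1 was below them and part 6 above, and part 2 had already covered 68.0% of the log2 difference between the ends. The slope was 0.22 ± 0.059 (limma adjusted p = 0.0263). The call was lost on leaving out replicate 1 (0.0675) or 2 (0.0717) of part 1, or replicate 1 (0.0535) or 2 (0.0934) of part 6. The other probe sets of Vangl2 were flatter, at 0.092 ± 0.036 (limma adjusted p = 0.143 over all kept probe sets) and -0.024 ± 0.030 (0.713). The signals of the flattest stayed between 37.1 and 59.1 on all 12 arrays. The increase of Vangl2 therefore rests on 1 of its 3 probe sets.

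Both Celsr cadherins rose, by different courses. Celsr1 had signals of 317 and 173 in part 1, 368 and 462 in part 2, 518 and 560 in part 3, 586 and 464 in part 4, 544 and 503 in part 5, and 539 and 588 in part 6. Parts 3, 4 and 5 each stood at 91.3% or more of the log2 distance from part 1 to part 6, so the course was level from part 3. Its slope was 0.21 ± 0.056 (limma adjusted p = 0.0277) and did not pass without replicate 1 of part 1 (0.0635) or replicate 2 of part 6 (0.0514). Celsr2 had signals of 59.2 and 38.2 in part 1, 68.9 and 67.2 in part 2, 86.1 and 75.1 in part 3, 98.9 and 95.6 in part 4, 122 and 105 in part 5, and 153 and 107 in part 6. Replicate 1 was the higher in all 6 parts, and the mean was higher at each step. The slope was 0.26 ± 0.035 (limma adjusted p = 0.000294) and passed on leaving out any 1 array. A second Celsr2 probe set, with signals of 15.2 to 36.2, had a slope of 0.046 ± 0.052 (limma adjusted p = 0.668 over all kept probe sets).

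Of the receptors, Ror2 rose and Ptk7 fell. Ror2 had signals of 157 and 97.0 in part 1, 250 and 275 in part 2, 199 and 325 in part 3, 259 and 400 in part 4, 319 and 439 in part 5, and 379 and 536 in part 6. Part 1 lay below all other parts, and from part 2 on replicate 2 was the higher. The slope was 0.31 ± 0.060 (limma adjusted p = 0.00341), the largest increase among the probe sets that represent the 10 genes, and a second probe set of Ror2 gave 0.28 ± 0.055 (0.00614 over all kept probe sets), with signals of 100 and 109 in part 1 and 233 and 456 in part 6. Without both arrays of part 1 the Ror2 slope was 0.21 and did not pass (limma adjusted p = 0.0706).

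Ptk7 had signals of 69.5 and 28.8 in part 1, 48.0 and 74.98 in part 2, 56.2 and 54.3 in part 3, 31.2 and 29.6 in part 4, 32.4 and 26.9 in part 5, and 9.47 and 3.02 in part 6. Parts 1 to 3 overlapped. Every array of parts 4 and 5 lay below every array of parts 2 and 3, but not below replicate 2 of part 1 (28.8). Both part 6 arrays were under the median signal of their arrays (16.7 to 19.1), so part 6 gives no more than an upper level. The slope was -0.43 ± 0.100 (limma adjusted p = 0.0122), and it passed on leaving out any 1 array. Without both arrays of part 6 it was -0.20 and did not pass (limma adjusted p = 0.219). Only 1 probe set measured Ptk7. With a filter at the 75th percentile of each array it was not among the genes tested.

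The cytoplasmic and scaffold members changed little. Dvl1 had signals of 824 and 739 in part 1, 895 and 759 in part 2, 949 and 724 in part 3, 939 and 915 in part 4, 1001 and 1033 in part 5, and 1227 and 955 in part 6. Its slope, 0.098 ± 0.028 (limma adjusted p = 0.0361), was the smallest that passed. A second probe set had a slope of 0.092 ± 0.032 that did not pass (limma adjusted p = 0.0977 over all kept probe sets). Dropping any of 6 arrays ended the Dvl1 call (limma adjusted p up to 0.130), as did testing all kept probe sets (0.0519). Dvl2 was lowest in part 1, at 45.5 and 44.7, and lay between 52.6 and 70.4 on every array of parts 2 to 6; its slope was 0.024 (95% interval -0.054 to 0.10). A second Dvl2 probe set never exceeded 4.43 and was left out by the filter.

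Scrib ranged from 226 to 354 over the 12 arrays, with a slope of 0.030 (95% interval -0.039 to 0.100), and its part 1 and part 6 arrays overlapped. Prickle1 had signals of 715 and 594 in part 1, 657 and 702 in part 2, 755 and 584 in part 3, 775 and 891 in part 4, 979 and 867 in part 5, and 618 and 636 in part 6. The 4 highest arrays were those of parts 4 and 5, and part 6 was no higher than part 1. Its slope was 0.039 (95% interval -0.048 to 0.13), and its drop from part 5 to part 6, -0.55 ± 0.19 log2, did not pass (limma adjusted p = 1). The other Prickle1 probe sets had signals of 7.42 to 29.2, near the array medians, and slopes of 0.00040 and -0.081.

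**Figure D2:**
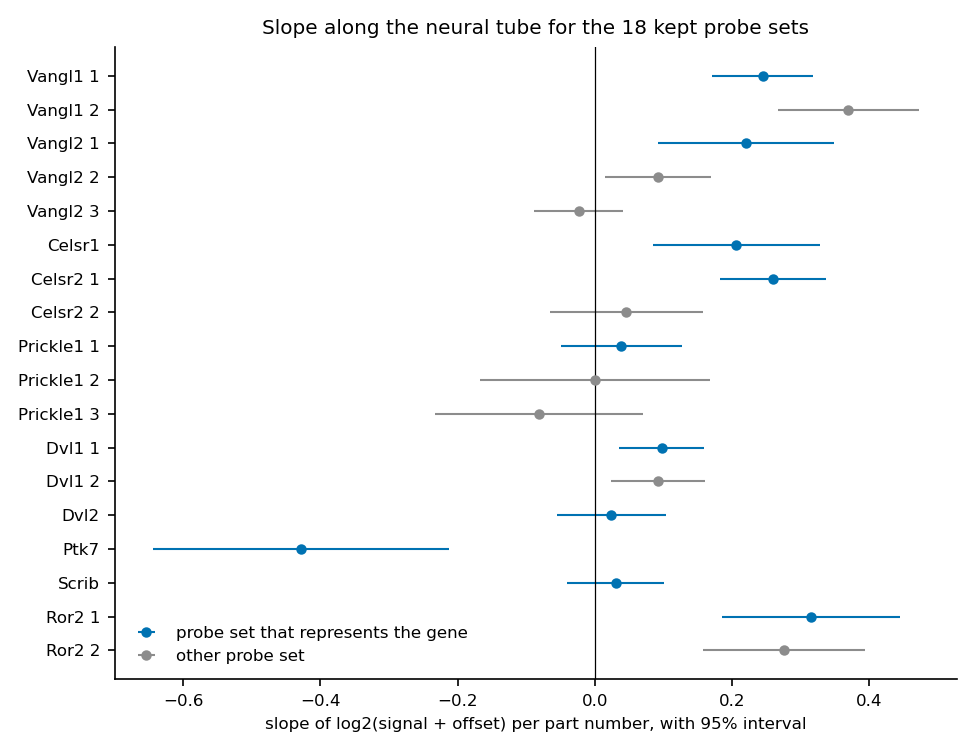
Slope of log2(signal + offset) per part number, with its 95% interval, for the 18 kept probe sets of the 10 genes; blue points are the probe sets that represent a gene and grey points the others, numbered within a gene. Both probe sets of Vangl1, Dvl1 and Ror2 lie above 0, while those of Vangl2 spread from -0.024 to 0.22.

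The end pieces were also compared directly. Part 6 exceeded part 1 by 1.83 ± 0.34 log2 for Ror2 (limma adjusted p = 0.00925), 1.61 ± 0.25 for Vangl2 (0.00385), 1.34 ± 0.23 for Celsr2 (0.00704), 1.27 ± 0.21 for Vangl1 (0.00536) and 1.25 ± 0.27 for Celsr1 (0.0195). Ptk7 was lower in part 6 by a difference of -2.28 ± 0.40 (0.00674), a size that depends on the offset (-2.82 with an offset of 1 and -1.42 with an offset at the median signal). Of all genes tested 9.00% passed this comparison, 4.14% higher in part 6 and 4.86% lower, against 5 higher and 1 lower of the 10. The remaining 4 did not pass. Their differences were 0.47 for Dvl1 (95% interval 0.028 to 0.91, limma adjusted p = 0.186), 0.30 for Dvl2 (-0.092 to 0.69), 0.17 for Scrib (-0.29 to 0.64) and -0.056 for Prickle1 (-0.47 to 0.36). The arrays of parts 1 and 6 did not overlap for 8 of the 10, as for 46.9% of all genes. Leaving out replicate 2 of part 6 removed the calls for Celsr1 (0.121), Ptk7 (0.0582) and Ror2 (0.0803). Leaving out replicate 1 removed those for Celsr1 (0.0737) and Celsr2 (0.0563).

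Asked whether the 6 pieces differed in any pattern, limma's F test passed Ptk7 (adjusted p = 0.0216), Vangl1 (0.0359) and Celsr2 (0.0492), against 4.89% of all genes. Vangl2 did not pass (0.0520) but did with the replicate number as a block (0.0494). These calls were fragile: the one for Vangl1 ended when any of 10 arrays was dropped (up to 0.115), for Celsr2 any of 11 (up to 0.112) and for Ptk7 any of 3 (up to 0.137). Between consecutive pieces 0 of the 10 passed limma's test at any of the 5 steps. At an unadjusted p under 0.05, 4 did from part 1 to part 2 (10.8% of all genes), 1 from part 3 to part 4 (3.23%) and 3 from part 5 to part 6 (3.81%). After adjustment, passing genes were few at every step, 0.248% of all genes at the first, 0.190% at the second and 0.00827% at each of the remaining 3.

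At the first step, from part 1 to part 2, Vangl2 differed by 1.10 ± 0.25 log2 (limma adjusted p = 0.157), Ror2 by 1.06 ± 0.34 (0.307) and Celsr1 by 0.80 ± 0.27 (0.336). In part 1 replicate 2 was the lower array for these genes and for all others of the 10, if only slightly for Dvl2 (45.5 and 44.7). That holds for the probe sets that represent the genes, and some other probe sets, as of Ror2 and Celsr2, had the opposite order. The share of all genes lower on that array was not counted. Without replicate 1 of part 1, which leaves 1 array there, assumed to vary like the other pieces, the step was wider and passed for Vangl2 (1.46 ± 0.22, limma adjusted p = 0.0413) and Celsr1 (1.23 ± 0.21, 0.0480). Without replicate 2 of part 1 it was narrower, 0.73 ± 0.22 for Vangl2 (limma adjusted p = 0.268), 0.73 ± 0.38 for Ror2 (0.452) and 0.37 ± 0.21 for Celsr1 (0.480), and passed for 0 of the 10, with 2 at an unadjusted p under 0.05. The step of Ptk7 from part 5 to part 6 did not pass (limma adjusted p = 0.469), and its size has no firm value, since both part 6 signals were under the array medians. Of the log2 distance from part 1 to part 6, Vangl1 stood at 36.1% in part 2 and 75.4% in part 4, and Celsr2 at 35.4% and 71.8%.

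All 10 genes had slopes of the same sign in both replicates, as had 65.6% of all genes tested. Celsr2 had 0.26 and 0.26 log2 per part in replicates 1 and 2, Vangl1 0.26 and 0.22, and Ptk7 -0.41 and -0.45. The slopes were less alike for Vangl2 (0.13 and 0.31) and Ror2 (0.22 and 0.41). The difference between the slopes passed for 0 of the 10 in limma's interaction test (smallest adjusted p 0.756), with 0 of the 10 also at an unadjusted p under 0.05. It passed for 0 of all genes, 799 of which had an unadjusted p under 0.05, so a miss here does not show that the slopes were alike. In overall level, 0 of the 10 differed between replicates after adjustment (limma, smallest adjusted p 0.208), against 1.62% of all genes. At an unadjusted p under 0.05, 2 of the 10 were lower in replicate 2, Celsr2 (-0.26 ± 0.10 log2) and Scrib (-0.23 ± 0.089), a share near that of all genes (19.8% at this p).

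Around these 10 genes, 7 lists of related genes with 88 members were examined, of which 81 were tested; 10 rose and 9 fell, and their median slope was -0.004. Among the other core genes, 2 of 5 rose, 1 fell and 2 did not pass. Fzd3, a Frizzled receptor of the polarity pathway, rose from 431 ± 24.9 to 850 ± 24.3 between the end pieces (mean signal ± SD, n = 2; slope 0.18 ± 0.023, limma adjusted p = 0.000141). Its 4 other probe sets had slopes of -0.016 to 0.16 and did not pass (limma adjusted p = 0.0919 to 0.928 over all kept probe sets). Ankrd6, a relative of the fly polarity protein Diego, rose by 0.41 ± 0.066. Prickle2 fell from 145 ± 50.1 at part 1 to 50.7 ± 7.39 (slope -0.25 ± 0.054, limma adjusted p = 0.00731), whereas Prickle1 did not pass; the difference between the 2 genes was not tested. Dropping both part 1 arrays ended the Prickle2 call (limma adjusted p = 0.114).

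In non-canonical Wnt signalling, the ligands Wnt5a and Wnt5b fell while the receptors Ror1, Fzd2 and Fzd7 rose and the receptor Ryk fell. Of 11 tested genes 3 rose, 3 fell and 5 did not pass. Wnt5b went from 911 ± 139 to 60.3 ± 5.99 between the end pieces (slope -0.80 ± 0.081, limma adjusted p = 3.26e-05), and most of the drop came before part 3, where it stood at 129 ± 6.16. Wnt5a, the best known ligand of Ror2, went from 1214 ± 165 to 285 ± 57.9 (-0.42 ± 0.070, adjusted p = 0.00141). Its means were 1214, 1469 and 1304 over parts 1 to 3 and lower after them. All 4 other kept probe sets of these ligands passed too, with slopes of -0.32 to -0.75. The receptors Fzd7 (0.54 ± 0.091) and Ror1 (0.35 ± 0.071) rose. A second Ror1 probe set had a slope of 0.0093 and did not pass (limma adjusted p = 0.969 over all kept probe sets). Ror1 was dim, and the first probe set stood near the array medians, at 5.83 ± 4.28 in part 1 and 27.3 ± 1.71 in part 6, and dropping both part 1 arrays ended its call (limma adjusted p = 0.0797). The remaining genes that passed, named after their values were seen, were the receptors Fzd2, which rose (0.30 ± 0.068), and Ryk, which fell (-0.12 ± 0.028).

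**Figure D3:**
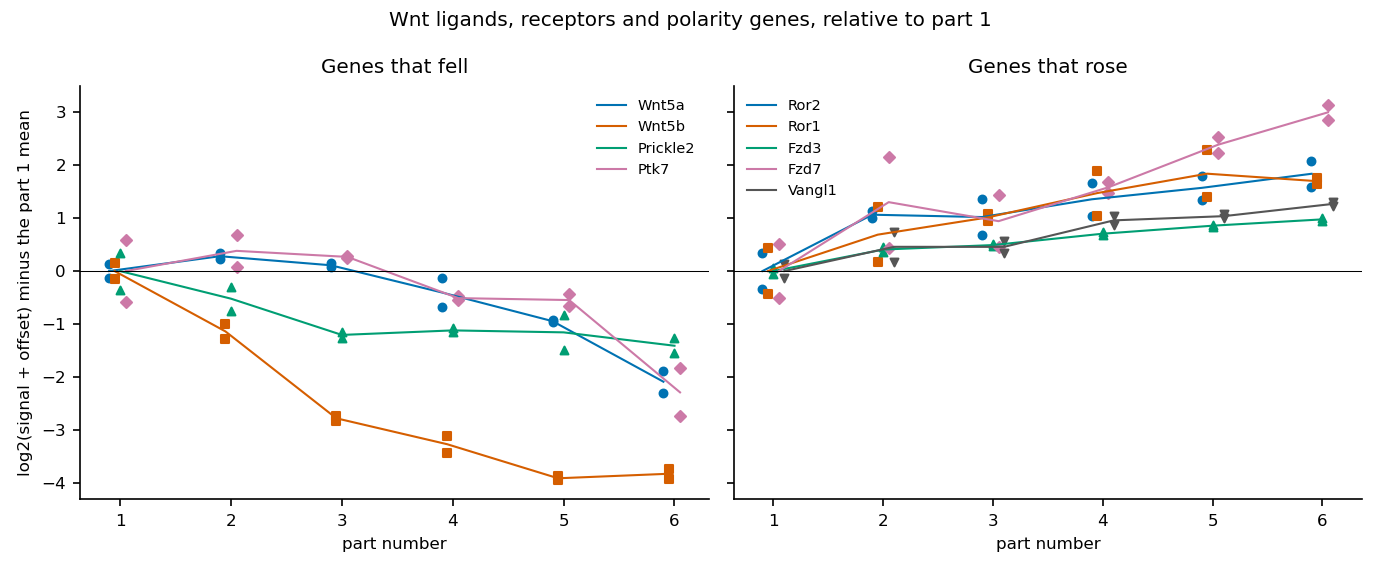
Difference of log2(signal + offset) from the part 1 mean, by part number, for genes that fell (left) and rose (right) by slope; points are single arrays and lines the means of 2. Wnt5b drops before part 3, Wnt5a and Ptk7 after it, and Ror2, Ror1, Fzd3, Fzd7 and Vangl1 end above part 1.

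Few genes downstream of the core passed. Of 9 ciliary effectors, such as Fuz and Intu, 0 passed limma's slope test (1, Bbs4, had an unadjusted p under 0.05), and of 9 genes for trafficking and modification of polarity proteins only Smurf1, a ubiquitin ligase that acts on Prickle, fell, with a slope of -0.21 ± 0.060. In the Fat and Dachsous system, a separate pair of giant cadherins, 1 of 5 rose (Fat3, 0.19 ± 0.050) and 1 fell (Fat4, -0.35 ± 0.086). Dropping any of 4 arrays ended the call for Smurf1 (limma adjusted p up to 0.0996), as did any of 3 for Fat3 (0.0947) and Fat4 (0.0680).

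Of 17 apical-basal polarity genes, the family of complexes in which Scrib also acts, 2 rose and 2 fell. Llgl2, a partner of Scrib, rose by 0.26 ± 0.061 per part (limma adjusted p = 0.0115, or 0.125 when both part 6 arrays were dropped), and Pard6b by 0.16 ± 0.042, with a second probe set at 0.17. Dlg1 (-0.10 ± 0.030) and Patj (-0.21 ± 0.061) fell, each with its call ended by dropping any of 7 arrays (limma adjusted p up to 0.123 and 0.139), and for Pard6b any of 3 (up to 0.0843). The 2 other Dlg1 probe sets, at -0.043 and -0.11, and the second of Patj, at -0.17, did not pass (limma adjusted p = 0.657, 0.252 and 0.0908 over all kept probe sets). Of 25 genes needed for neural tube closure outside planar polarity, 2 rose, 1 fell and 22 did not pass. Pax3, a dorsal transcription factor, rose from 256 ± 33.5 to 1012 ± 142 (slope 0.44 ± 0.056, limma adjusted p = 0.000191). Grhl3, which acts in the surface ectoderm at the closing tip, fell from 63.1 ± 31.3 to 19.4 ± 10.7 (-0.30 ± 0.082), a call that dropping any of 5 arrays ended (up to 0.115). Marcks rose by 0.080 ± 0.023, a call that dropping any of 7 arrays ended (up to 0.0950); its 6 other probe sets had slopes of -0.26 to 0.15.

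**Figure D4:**
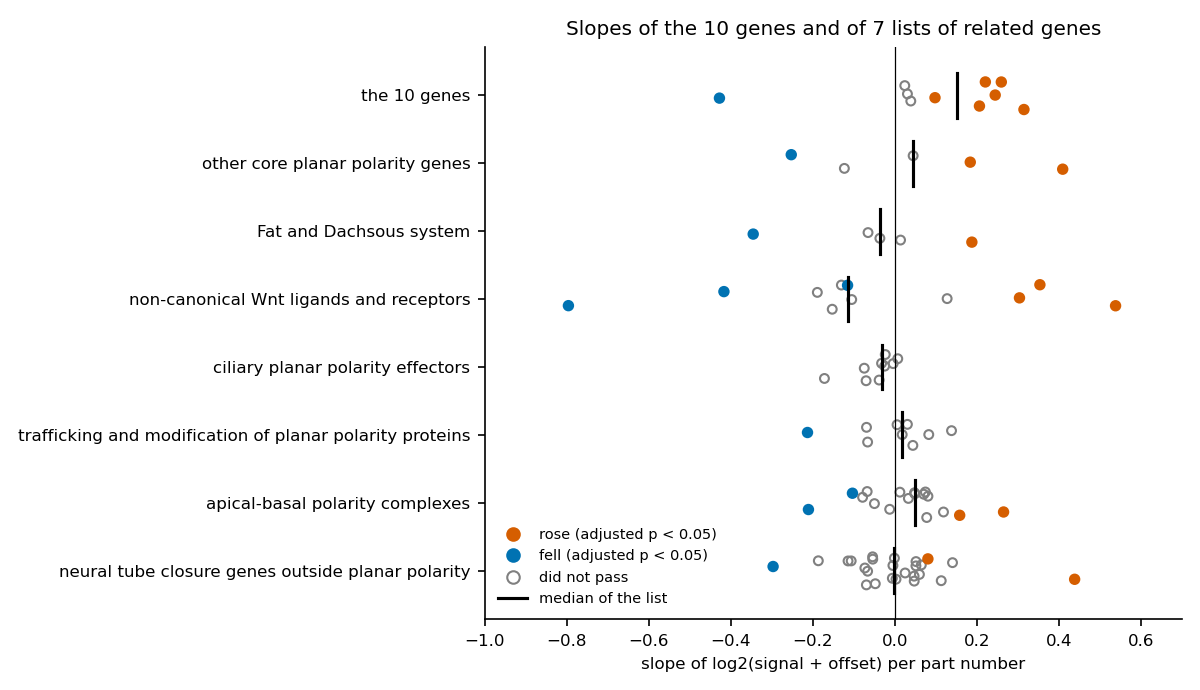
Slope of log2(signal + offset) per part number for the 10 genes and for the tested genes of the 7 related lists; each point is a gene, filled where the limma adjusted p was under 0.05, and black bars are list medians. The median of the 10 genes is 0.152, and those of the 7 lists lie between -0.115 and 0.048.

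For each of the 7 members that passed, the tested genes with the most similar course were found by Pearson's r of the log2 values over the 12 arrays, which share the order of the parts. Vangl1 was closest to Pard3b (r = 0.953), a polarity protein related to Pard3, to Fzd3 (0.947) and to Zfp516 (0.942). Vangl2 was closest to Bend4 (0.952), Pspc1 (0.933) and Tub (0.931), Celsr1 to Hivep1 (0.967), Nup210 (0.958) and Stox2 (0.952), and Celsr2 to Nkrf (0.966), Camk2n2 (0.963) and Dusp3 (0.963). Ror2 was closest to Alkbh1 (0.962), followed by Nuak2 (0.959) and the receptor Notch2 (0.957). Dvl1 was closest to Prkar2a (0.949), Poglut2 (0.922) and Dleu7 (0.917), and Ptk7 to Ccdc136 (0.955), Castor1 (0.947) and Stra6l (0.945). Among the 10 genes themselves the highest r was that of Vangl1 with Celsr2 (0.904).

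Signals of cell type markers also changed along the series, which does not tell a change of cell make-up from one of RNA per cell. The summed signal of 6 neural progenitor markers was 353 to 467 on the part 1 arrays and 5240 to 5520 on those of part 6, and all 6 rose, including Sox2 and Pax6. Of 5 measured caudal progenitor markers 4 fell, with sums of 6060 to 6730 in part 1, 5570 to 7690 in part 2 and 1200 to 1270 in part 6. The fifth, Nkx1-2, did not pass by slope (limma adjusted p = 0.218). Its mean signals were 1577 in part 1, 2981 in part 3 and 977 in part 6. Of 6 presomitic mesoderm markers, a neighbouring tissue, 4 fell, with sums of 3970 to 5510 in part 1 and 207 to 226 in part 6. Of 6 surface ectoderm markers 5 were tested and 4 fell, with sums of 357 to 952 in part 1 and 109 to 117 in part 6. Of 6 endothelial markers Pecam1, Cdh5, Tek and Emcn stayed under the array medians throughout; the sums, carried by Aplnr, were 678 to 2770 in part 1 and 43.1 to 55.1 in part 6. Sums of 6 neuron markers were 135 to 153 in part 1 and 183 to 237 in part 6, with Dcx and Isl1 always under the array medians; of the 4 tested, Elavl4 rose (slope 0.26), Stmn2 fell (-0.26) and 2 did not pass. Of 5 neural crest markers 2 rose, of 3 tested somite markers 1 fell, of 3 tested notochord markers 1 rose, and of 4 blood markers 0 passed limma's test (0 at an unadjusted p under 0.05). Neural crest sums were 176 to 200 and 300 to 335, somite sums 101 to 158 and 44.8 to 64.9, and notochord sums 65.7 to 152 and 144 to 178. Blood sums varied between arrays of a part, from 15.4 to 2870 in part 1, and those of gut endoderm never exceeded 30.4. The part of these tissues in the slopes of the 10 genes was not tested.

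**Figure D5:**
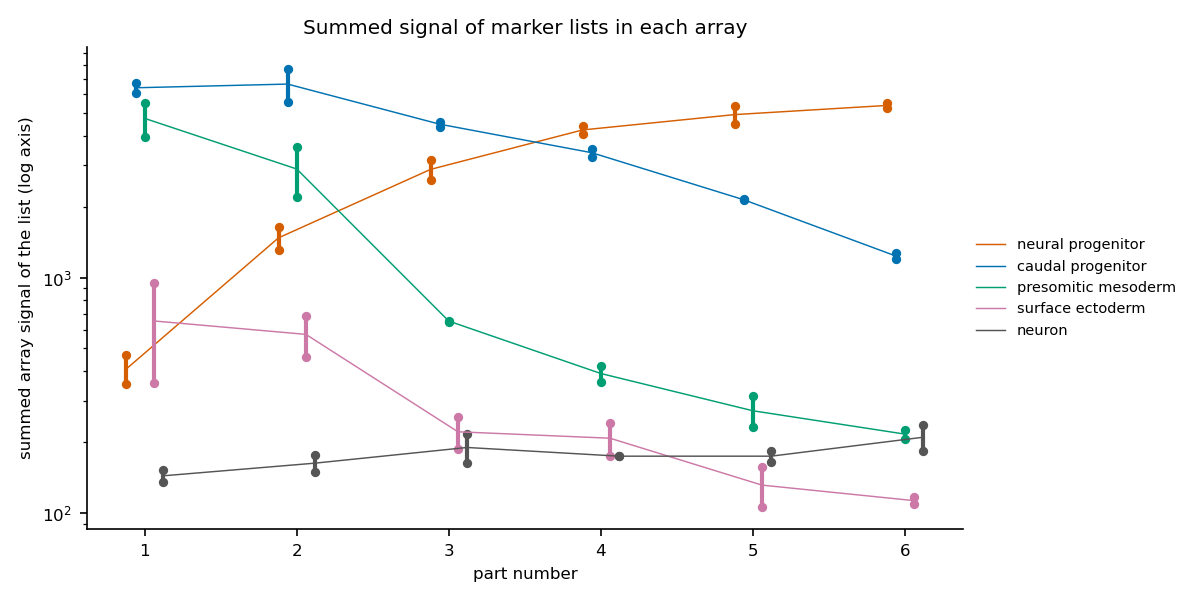
Summed array signal (log axis) of 5 marker lists by part number; points are the 2 arrays of a part, vertical bars join them and lines join their midpoints. Neural progenitor markers stand at 353 to 467 in part 1 and 5240 to 5520 in part 6. Sums of caudal progenitor, presomitic mesoderm and surface ectoderm markers are lower in part 6 than in part 1.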

How the data were processed

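Per the labels' protocols, RNA from each piece was amplified in 2 cycles and labelled with biotin. The deposited table holds linear intensities, and the submitters' processing notes name MAS5, version not given in the sources used here. On checking, the trimmed mean without the highest and lowest 2% of probe sets was 100 on every array. Detection calls were not used here.

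Of 45101 probe sets, 34958 had 1 gene symbol in GEO's platform annotation, 932 several and 9211 none. Probe sets above their array's median on at least 2 of 12 arrays were kept (21679), and each of 12089 genes was represented by the kept probe set with the highest mean of log2(signal + 4.43). limma 3.58.1 in R 4.3.3 fitted the slope over part number, 1 coefficient per piece (F test, end pieces, consecutive pieces), the replicate term and its interaction with part number. The text names the 10 genes, up to 4 passing genes per list by smallest p, and the 3 genes of highest r per passing member. Members, lists and tests were chosen with earlier results of these data known. The steps were tested on simulated data with independent noise on each array. The simulation held no effect shared by arrays of 1 replicate number and cannot check how such an effect bears on the p-values.

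The replicate numbers were taken as the 2 embryos, which is an assumption. Deviations from piece means of same-numbered arrays correlated in all 15 pairs of pieces (0.175 to 0.325). That check cannot tell a shared embryo from shared processing of the arrays. Promoter windows are from RefSeq. A further gene list is not reported here.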

Additional observations from a re-analysis of the deposited data

How the results depend on the processing

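The alternatives were other offsets, filters and scaling, all kept probe sets, the replicate number as a block, and leaving out arrays. The slopes of Vangl1 and Celsr2 passed under all 21 alternatives run for them. With the replicate block the slope test called the same 7 of the 10 genes. The block changed 1 call among the 10 genes, Vangl2 in the F test (0.0494), and raised the sum of genes called over consecutive pieces from 56 to 87.

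The limma slope test called 1534 genes and 7 of the 10. Without both arrays of part 1 it called 902 and 3, and without both of part 6, 988 and 3; single arrays left out gave 1175 to 1536 and 5 to 7. The F test called 591 genes and 3 of the 10. It called 300 and 1 without part 1 and 319 and 0 without part 6, 5 of the 10 with an offset at the median signal, and 1 with no filter or with every probe set; single arrays left out gave 331 to 558 and 0 to 4. The part 6 against part 1 comparison called 1088 genes and 6 of the 10, and 480 to 1308 and 3 to 6 with single arrays left out. Consecutive pieces gave 92 calls with the offset at the median, 21 with no filter, 114 with the filter at the 75th percentile, 19 without part 1, 29 without part 6, and 20 to 130 (0 to 2 of the 10) with single arrays left out. The replicate comparison called 196 genes. It called 404 with the offset at the median, 113 with no filter, 495 with the filter at the 75th percentile, 806 with every probe set, 112 without part 6, and 112 to 170 with single arrays left out. The cause of these shifts was not tested.

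Signs turned only for values that did not pass. Without part 1 the slope was -0.057 for Dvl2 and -0.0079 for Scrib. With single arrays left out the slope ran from -0.0034 to 0.042 for Dvl2 and from -0.0057 to 0.054 for Scrib, and the difference between part 6 and part 1 from -0.19 to 0.077 for Prickle1 and from -0.072 to 0.42 for Scrib. The Ptk7 signals in part 6 were under the array medians (16.7 to 19.1) and give no more than an upper level. The order of signals near those medians is uncertain.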
